A study of Mus musculus with 10 samples.

Results

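Bmp4, Bmpr1a, Smad1, Smad5, Smad6, Id1, Id2 and Id3 were taken by name as genes of the bone morphogenetic protein (BMP) pathway and its Id targets, and all 8 were found among the 30419 genes of the window files. The data are m6A RNA immunoprecipitation sequencing of the J1 mouse embryonic stem cell line, in which fragmented RNA was precipitated with an antibody against N6-methyladenosine (IP) and sequenced beside unprecipitated RNA (input). Of the 10 libraries, 2 IP and input pairs came from Mettl3 knockout (KO) cells, 2 pairs from cells labelled Mettl3 wild type (WT), and 1 first pair carried no genotype label. The labels give feeder-free growth for J1 cells and mention differentiation without LIF, but assign neither state to a library and give no age, clone or culture of origin. Whether the libraries of a group stem from separate cultures is not labelled, so each p-value rests on library spread that could be technical.

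BMP4 is a secreted ligand that binds a complex of type I and type II receptors, one of the type I receptors being BMPR1A. The active receptor phosphorylates SMAD1 and SMAD5, which enter the nucleus with SMAD4 and switch on target genes, the Id genes among them, while SMAD6 blocks the receptor-activated SMADs. ID proteins bind E proteins and keep them from DNA, and in mouse embryonic stem cells BMP signalling through Id genes is known to hold back neural differentiation. METTL3 is the enzyme that deposits most m6A on messenger RNA.

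Mettl3 input coverage was 3.14 and 3.38 in the KO libraries, against 4.79 and 4.67 in the WT libraries and 12.9 in the first input. The KO transcript level was lower by a log2 difference of -0.43 ± 0.07 (SE, adjusted p = 0.0026, limma), so Mettl3 RNA was still covered in the KO inputs. Coverage here is the authors' scaled coverage per exon window, averaged over a gene, which makes levels comparable between genes per length. Relative to the first input, the depth was 0.516 and 0.284 in the KO inputs and 0.438 and 0.457 in the WT inputs. Relative to the first IP, it was 0.0644 and 0.0606 in the KO IPs and 0.159 and 0.0712 in the WT IPs. No coverage was seen in 74.3% and 67.6% of windows in the KO IPs, against 50.5% and 65.4% in the WT IPs and 32.0% in the first IP. Among stem cell markers, Pou5f1 had 252 and 248 in KO inputs against 246 and 260 in WT inputs. Of the 8 stem cell markers, Nanog, Klf4 and Dppa5a fell, Utf1 rose and 4 did not pass. Their summed coverage was 2015 and 1875 in KO inputs against 2467 and 2529 in WT inputs. Dppa5a made up most of that sum, with 1121 and 1029 in KO inputs against 1525 and 1539 in WT inputs. Of 8 fibroblast markers, 6 were below 0.5 in all 5 inputs. The summed coverage of the list was 2.80 and 2.51 in KO inputs against 2.94 and 2.65 in WT inputs. Most of that sum was Thy1, with 2.22 and 2.07 in KO inputs against 2.75 and 2.43 in WT inputs. Col1a1 went the other way, at 0.287 and 0.204 in KO against 0.0868 and 0.0567 in WT, as did Col1a2, at 0.194 and 0.112 against 0.0151 and 0.0207. Of 6 early neural markers, 3 were tested: Nes rose, Sox1 fell and 1 did not pass. A gene was tested if it reached 1 in 2 or more of the 4 KO and WT inputs. Nes did so only in KO, at 3.15 and 2.67 against 0.900 and 0.681 in WT. Sox1 did so only in WT, at 1.22 and 1.03 against 0.539 and 0.365 in KO. The filter thus favoured the direction of each of these 2 calls. The summed coverage of the list was 24.0 and 24.5 in KO inputs against 21.6 and 22.3 in WT inputs. Most of that sum was Tubb3, with 20.1 and 21.3 in KO inputs against 19.3 and 20.4 in WT inputs. The part of these markers in the results below was not tested.

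The first comparison asked whether transcript levels of the BMP and Id genes differed between KO and WT cells. Bmp4, Bmpr1a and Id3 fell, Id1 rose, and Smad1, Smad5, Smad6 and Id2 did not pass the test. Thus 3 of 8 genes were called lower, where 13.6% of the 11211 genes tested were called lower, and 1 was called higher, where 13% were. The median log2 difference was -0.20 over the 8 genes and -0.0048 over all genes tested. In bulk RNA, fewer cells that carry a transcript and less of it per cell cannot be told apart. With no filter on low genes, none of the 4 called genes passed, with adjusted p between 0.13 for Bmpr1a and 0.46 for Id3 (limma). With gene median coverage in place of the mean, adjusted p was 0.10 for Bmpr1a, 0.076 for Id1 and 0.15 for Id3, and with size factors it was 0.057 for Id3.

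The ligand Bmp4 had the lowest coverage of the 8 genes, with 0.669 and 0.507 in the KO inputs, against 1.15 and 1.26 in the WT inputs and 1.59 in the first input. Both KO values lay below both WT values, and the KO mean was 0.488 times the WT mean (0.588 ± 0.115 against 1.2 ± 0.077, SD, n = 2 each). The log2 difference was -0.47 ± 0.09 (SE, adjusted p = 0.0051, limma). Leaving out 1 library put this difference between -0.55 and -0.40. Bmp4 reached the coverage of 1 needed in 2 of the 4 inputs only through WT, where it was higher. The filter thus favoured a fall, and without it adjusted p was 0.19 (limma). With a pseudocount of 0.1 in place of 1 the log2 difference was -0.93, since the pseudocount of 1 shrinks the change of a gene at this level.

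The receptor gene Bmpr1a had 8.18 and 8.06 in the KO inputs, against 9.43 and 9.76 in the WT inputs and 12.7 in the first input. The groups did not overlap. The log2 difference was -0.22 ± 0.06 (SE, adjusted p = 0.035, limma), a KO mean 0.846 times the WT mean. Left-out libraries ended this call: adjusted p was 0.12 without the first WT library, 0.21 without the second WT library and 0.077 without the second KO library.

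Smad1 and Smad5 encode the SMADs that the BMP receptors phosphorylate. Smad1 had 3.92 and 3.46 in the KO inputs, against 3.16 and 3.54 in the WT inputs and 6.66 in the first input. The groups overlapped, and the log2 difference of 0.11 ± 0.08 (SE, adjusted p = 0.36, limma) did not pass. Smad5 had 3.78 and 3.23 in the KO inputs, against 4.07 and 4.13 in the WT inputs and 5.40 in the first input. Its groups did not overlap, but the log2 difference of -0.18 ± 0.08 (SE, adjusted p = 0.12, limma) did not pass. Smad6, the inhibitory SMAD, had 1.22 and 1.43 in the KO inputs, against 1.65 and 1.96 in the WT inputs and 3.56 in the first input. These groups did not overlap either, and the log2 difference of -0.27 ± 0.09 (SE, adjusted p = 0.053, limma) did not pass the threshold of 0.05. Single libraries moved these values: Smad5 was at -0.27 without the first KO library, where it passed (adjusted p = 0.031, limma), and at -0.095 without the second. Smad6 passed without the second KO library (-0.34, adjusted p = 0.037, limma). Leaving out 1 library put Smad1 between 0.036 and 0.18, and it passed in none of these fits.

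The Id genes did not share a direction. Id1 had 8.34 and 9.67 in the KO inputs, against 7.0 and 7.65 in the WT inputs and 8.77 in the first input. Both KO values were above both WT values, and the log2 difference was 0.26 ± 0.08 (SE, adjusted p = 0.040, limma). Id2, the highest of the 8 genes in every input group, had 12 and 12.4 in the KO inputs, against 10.8 and 11.3 in the WT inputs and 13.5 in the first input. Its groups did not overlap, and the log2 difference of 0.13 ± 0.07 (SE, adjusted p = 0.16, limma) did not pass. Id3 had 4.85 and 3.77 in the KO inputs, against 5.44 and 5.56 in the WT inputs and 5.60 in the first input. Both KO values were lower, and the log2 difference was -0.30 ± 0.10 (SE, adjusted p = 0.044, limma). Without the second KO library, the shallowest input, the differences were 0.17 for Id1 (adjusted p = 0.17, limma) and -0.15 for Id3 (adjusted p = 0.19, limma). Without the first WT library they were 0.21 (adjusted p = 0.20) and -0.31 (adjusted p = 0.071), and without the second WT library Id3 was at -0.29 (adjusted p = 0.094). Of the 8 genes, 7 had groups that did not overlap, 5 lower in KO and 2 higher, where 34% and 31.7% of all genes tested had such groups.

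**Figure D1:**
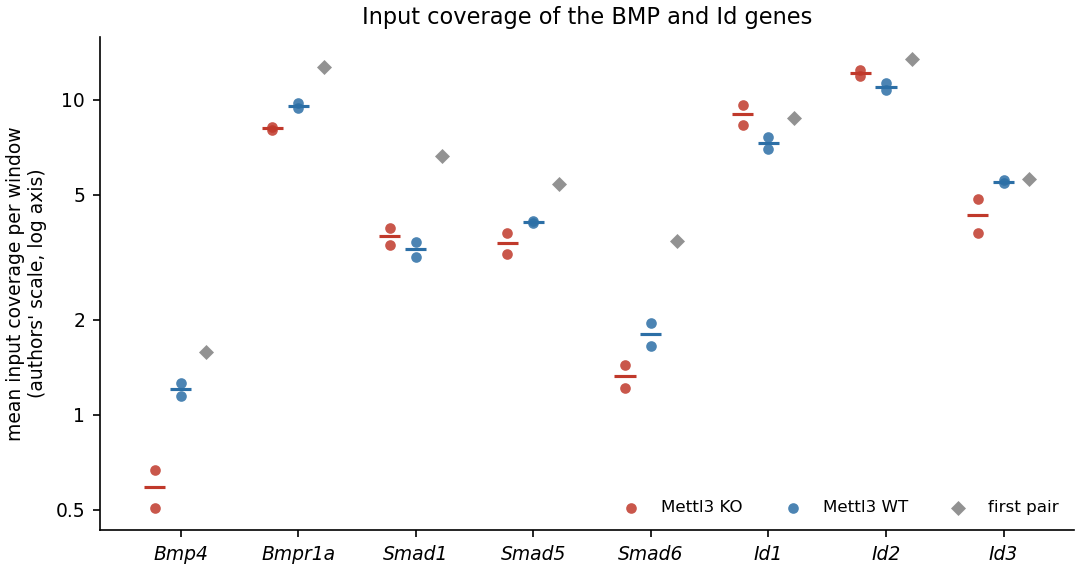
Mean input coverage per window of the 8 genes on a log axis, in the KO, WT and first input libraries (points, bars are means of 2 libraries). The KO points lie below the WT points for Bmp4, at 0.669 and 0.507 against 1.15 and 1.26, and above them for Id1.

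In order of level, KO inputs ran Id2, Id1, Bmpr1a, Id3, Smad1, Smad5, Smad6 and Bmp4, and WT inputs ran Id2, Bmpr1a, Id1, Id3, Smad5, Smad1, Smad6 and Bmp4. Neighbours whose ranges overlapped in the KO inputs were Id3 with Smad1 and Smad1 with Smad5, and no neighbours overlapped in the WT inputs.

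A deposited table of RPKM values gave other directions. In the authors' deposited table the values of Bmp4 were 5.84 and 10.5 in the columns labelled KO input, against 1.2 and 1.32 in the WT columns. For Id3 the authors' deposited table had 13.2 and 16.2 in the KO columns, against 6.26 and 6.38 in the WT columns. Bmp4, Bmpr1a, Smad6 and Id3 all had the opposite sign in that table. Across 11552 genes the KO RPKM columns correlated at 0.700 and 0.715 with the KO input tracks and at 0.958 and 0.974 with the KO IP tracks, whereas the WT columns correlated at 0.992 with both WT input tracks. Transcript levels were therefore taken from the input tracks.

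Id2 and Id3 are shown by the 250 bases before their start sites, because Id genes are direct targets of BMP SMADs. These 2 gave differences of opposite sign, of which only that of Id3 passed the test. A link between the sequences and these differences was not tested. Capitals mark GGCGCC, which is its own reverse complement, and CAGAC or its reverse complement GTCTG, letters of SMAD binding sequences searched on both strands. The sequences are from RefSeq, build GRCm38.p6, Id2 at chr12:25096093-25096342 on the minus strand and Id3 at chr4:136143572-136143821 on the plus strand.
Id2: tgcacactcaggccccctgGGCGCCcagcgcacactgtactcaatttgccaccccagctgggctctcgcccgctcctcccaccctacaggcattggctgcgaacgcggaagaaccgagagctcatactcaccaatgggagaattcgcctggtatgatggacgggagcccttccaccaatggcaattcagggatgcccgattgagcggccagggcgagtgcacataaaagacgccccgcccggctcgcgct
Id3: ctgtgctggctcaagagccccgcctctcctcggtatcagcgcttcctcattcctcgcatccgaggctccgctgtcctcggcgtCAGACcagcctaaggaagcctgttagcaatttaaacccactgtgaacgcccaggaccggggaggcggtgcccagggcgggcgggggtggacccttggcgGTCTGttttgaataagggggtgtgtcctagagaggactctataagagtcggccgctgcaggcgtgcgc
The Id2 window held 1 GGCGCC and the Id3 window 2 matches to CAGAC. Of 32851 promoter windows of this length, 9.59% held GGCGCC and 42.2% held CAGAC. The table holds promoters for 7 of the 8 genes, and Id1 is named only.

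The second comparison asked where along these transcripts the antibody enriched RNA, and whether KO and WT cells differed there. Enrichment of a window was read from winscore, the authors' log2 ratio of IP over input with both set relative to the gene's median. A region was a run of 2 or more neighbouring windows that each reached a winscore of 2 in the first IP library. The 8 genes held 8 such regions: 2 each in Smad1 and Smad5 and 1 each in Bmp4, Bmpr1a, Id2 and Id3. Id1 and Smad6 held none. Exons are numbered in genomic order in the files, so the exon numbered 1 is the last exon of the minus-strand genes Bmp4, Bmpr1a, Smad1, Smad6 and Id2. Of the 8 regions, 5 lay in the last exon, as did 68.1% of 7121 regions in all tested genes with at least 2 exons and a strand. In the last exon the Bmpr1a region covered the 3rd to 9th of 73 windows, the Smad1 region the 4th to 10th of 28 and the Id2 region the 4th to 6th of 16, counted from the 5' side. The Id3 region covered the 3rd to 5th of 11 windows and the Bmp4 region the 4th to 16th of 24.

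Bmpr1a held the region with the highest mean winscore of the 8 in each of the 5 pairs. Its mean winscore was 6.71 and 5.82 in the KO pairs, against 6.32 and 7.32 in the WT pairs and 4.77 in the first pair. The KO and WT values overlapped. IP coverage there was 145 and 140 in the KO IPs, against 279 and 219 in the WT IPs and 267 in the first IP. The region held 73.0% and 71.2% of the gene's IP coverage in the KO libraries, against 84.4% and 84.6% in the WT libraries and 71.7% in the first. For the test, the log2 ratio of IP to input was centred on windows outside regions. This ratio was 4.72 and 4.68 in KO and 5.31 and 5.28 in WT, without overlap, and its difference of -0.60 ± 0.24 (SE, adjusted p = 0.30, limma) did not pass. Centred on regions in place of windows outside them, the difference was -0.17.

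In the Smad1 last-exon region, the centred ratio was 3.46 and 4.62 in the KO pairs and 5.12 and 5.78 in the WT pairs. Both KO values were lower than both WT values, and the difference of -1.42 ± 0.47 (SE, adjusted p = 0.27, limma) did not pass. IP coverage there was 35.8 and 71.5 in the KO IPs, against 105 and 141 in the WT IPs and 161 in the first IP. The second Smad1 region, in exon 6 and so in the second exon from the 5' end, had a ratio of 2.82 and 3.52 in the KO pairs and 3.39 and 3.33 in the WT pairs. These values overlapped, with a difference of -0.19 ± 0.44 (SE, adjusted p = 0.82, limma). Its winscore had the opposite sign, at 2.99 and 3.52 in the KO pairs and 2.46 and 2.57 in the WT pairs, without overlap. The winscore difference was 0.74 ± 0.61 (SE, adjusted p = 0.75, limma). Winscore is set relative to the gene's median, and the Smad1 IP median was 0.76 and 0.92 in KO, against 2.26 and 2.16 in WT. IP coverage in the exon 6 region was 14.1 and 17.3 in the KO IPs, against 22.4 and 18.2 in the WT IPs. In the last-exon region winscore overlapped between the groups, with a difference of -0.54 ± 0.56 (SE, adjusted p = 0.82, limma). Within Smad1, then, the last-exon region and the exon 6 region had different values, and the difference between them was not tested.

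Both Smad5 regions lay in exon 3. The first had a ratio of 3.22 and 2.17 in the KO pairs and 3.18 and 3.25 in the WT pairs, a difference of -0.52 ± 0.53 (SE, adjusted p = 0.60, limma). The second had a ratio of 2.14 and 2.78 in the KO pairs and 2.09 and 2.63 in the WT pairs, a difference of 0.10 ± 0.55 (SE, adjusted p = 0.93, limma). KO and WT values overlapped in both regions.

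The Id2 region had a ratio of 2.69 and 3.21 in the KO pairs and 3.54 and 3.90 in the WT pairs, a difference of -0.77 ± 0.42 (SE, adjusted p = 0.37, limma) without overlap. By winscore its groups overlapped, with a difference of -0.16 ± 0.59 (SE, adjusted p = 0.96, limma). The ratio difference was -0.34 when centred on regions and -1.37 at a region threshold of winscore 1. Next to it, 3 windows nearer the 3' end carried high IP coverage in the WT libraries: window 9 had 20.9 and 101 in the KO IPs, against 180 and 327 in the WT IPs and 120 in the first IP. The first KO library was the lowest of the 5 there. Input coverage in that window was 14.7 and 13.8 in the KO inputs, against 17.7 and 12.7 in the WT inputs.

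The Id3 region had a ratio of 1.89 and 3.02 in the KO pairs and 4.10 and 3.99 in the WT pairs. The KO values lay below the WT values, and the difference of -1.59 ± 0.51 (SE, adjusted p = 0.27, limma) did not pass. Winscore differed in the same direction, at 1.89 and 2.56 in KO against 3.83 and 4.10 in WT, with a difference of -1.73 ± 0.60 (SE, adjusted p = 0.56, limma). By winscore 22% of all regions had KO below WT without overlap. IP coverage was 8.82 and 26 in the KO IPs, against 55.0 and 60.8 in the WT IPs and 40 in the first IP. Without the second KO library the Id3 region passed by ratio (-2.15, adjusted p = 0.0027, limma) and by winscore (-2.07, adjusted p = 0.014), as did the Smad1 last-exon region by ratio (-2.00, adjusted p = 0.0019). Without the first KO library the ratio differences were -1.03 for Id3 and -0.84 for Smad1, and neither passed. With 1 KO library left, it is taken to vary as the WT libraries do.

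Bmp4 was left out of the region and gene ratio tests, which kept genes whose input coverage averaged 1 or more over all their windows in the KO and WT libraries. Its region alone had an input coverage of 0.857 and 0.725 in KO and 1.12 and 1.45 in WT. Leaving out that filter was an alternative chosen after seeing the data. The Bmp4 region then had a ratio of 2.31 and 3.93 in the KO pairs and 4.53 and 4.97 in the WT pairs. The difference was -1.64 ± 0.61 (SE, adjusted p = 0.34, limma). Within the region, window 10 had no IP coverage in either KO library, against 7.75 and 21.5 in the WT IPs and 54.1 in the first IP. In window 12 the first KO IP again had none, but the second had 32.8, against 15.1 and 32.7 in the WT IPs, so that the groups overlapped there. Outside it, window 4, near the 3' end, had 78.6 and 106 in the KO IPs, against 57.9 and 234 in the WT IPs and 1.60 in the first IP. Coverage at this place was thus high in all 4 KO and WT IPs and low in the first IP. Input coverage there was 1.79 and 0.515 in KO, against 1.83 and 2.79 in WT and 0.522 in the first input.

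No region was called in either direction (0% of 9963 regions by winscore and 0% of 9475 by ratio, limma), while 809 and 1582 had an unadjusted p under 0.05. Of the 9475 regions 77.6% had a lower ratio in KO, with a median difference of -0.45. KO and WT libraries did not overlap, with KO lower, in 46.1% of them and, with KO higher, in 7.37%. Of the 7 tested regions of the 8 genes, 4 had such groups. In simulated data with 2 libraries a group, 80, 80 and 40 regions were changed by 1, 2 and 4 on the log2 scale. Both measures recovered 0% of them. The simulation shuffled the spreads among regions and changed few regions, unlike these data, so it does not measure their power. The absence of calls does not show that values were equal.

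**Figure D2:**
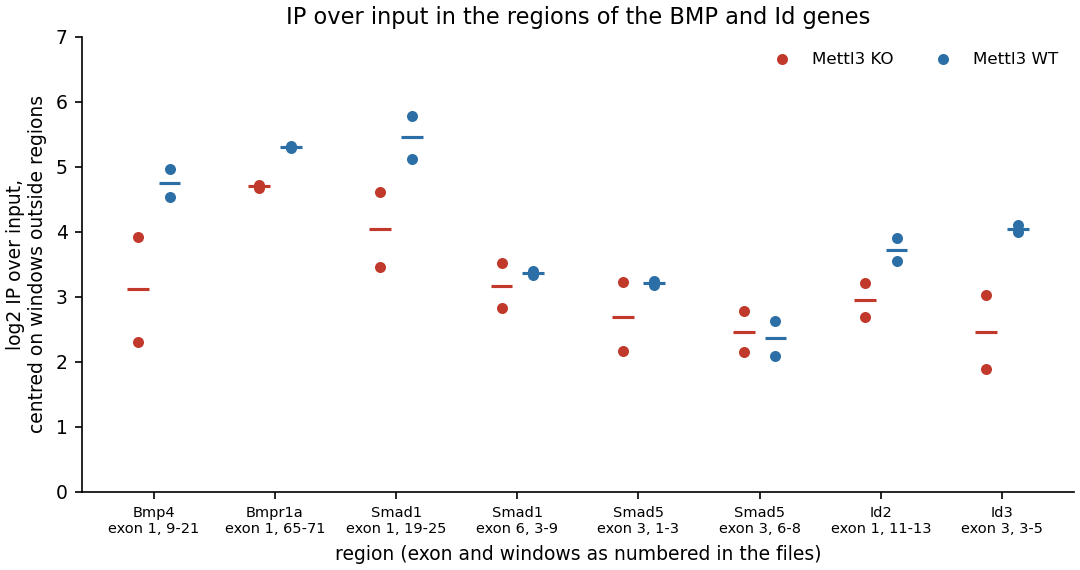
Log2 ratio of IP over input, centred on windows outside regions, in the 8 regions (points are libraries, bars are means of 2 libraries, KO left of WT). KO points lie below WT points in Bmp4, Bmpr1a, the last exon of Smad1, Id2 and Id3, as for Id3 with 1.89 and 3.02 against 4.10 and 3.99.

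**Figure D3:**
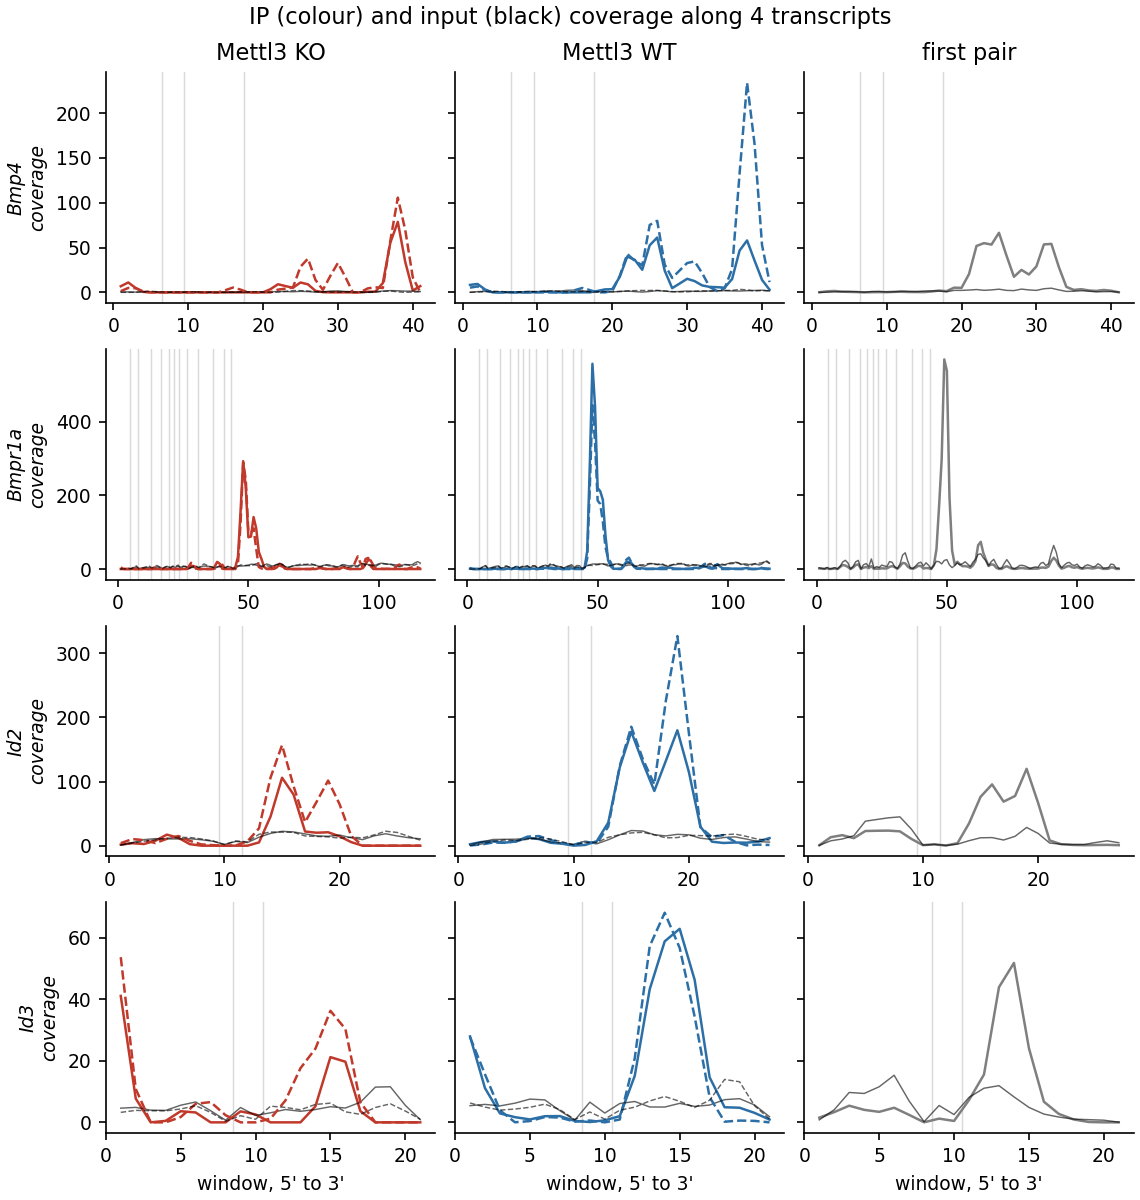
IP coverage (colour) and input coverage (black) by window from 5' to 3' along Bmp4, Bmpr1a, Id2 and Id3, with grey lines at exon borders, and with solid and dashed lines for the 2 libraries of a group. IP peaks lie in the last exon, and Id3 has a further peak in its first window, at 41.1 and 53.7 in KO and 28 and 27.8 in WT.

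Over whole genes, the ratio of IP to input coverage was lower in KO for each of the 7 genes tested, and none passed. Of all 11018 genes, 0% were called by limma and 1986 had an unadjusted p under 0.05, and 71.0% had a lower ratio in KO, with a median difference of -0.21. The ratio of Id2 was 1.14 and 2.20 in the KO pairs, against 3.82 and 4.71 in the WT pairs and 1.94 in the first pair. Its centred log2 difference was -1.43 ± 0.32 (SE, adjusted p = 0.18, limma), without overlap. Smad1 had a ratio of 1.78 and 3.22 in the KO pairs, against 4.95 and 5.36 in the WT pairs and 4.16 in the first pair, a difference of -1.07 ± 0.27 (SE, adjusted p = 0.19, limma). The other 5 ranged between -0.67 for Id3 and -0.10 for Smad5. Without the first KO library the difference was -0.18 for Id3 and -0.048 for Id1, against -1.17 and -0.84 without the second. Groups did not overlap, with KO lower, for Bmpr1a, Smad1, Smad6, Id2 and Id3, where 41.7% of all genes had such groups. Without the second KO library, Smad1, Id2 and Id3 passed (adjusted p = 0.0037, 0.0014 and 0.0076, limma), and without the first KO library none of the 7 did.

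The 5' ends of Id1 and Id3 also carried IP coverage, a measure chosen after the data were seen. The first window of Id1 had 32.9 and 135 in the KO IPs, against 34.3 and 74.0 in the WT IPs and 4.37 in the first IP. Its input coverage was 7.26 and 12.8 in KO, against 6.87 and 7.48 in WT and 5.56 in the first input. The first window of Id3 had 41.1 and 53.7 in the KO IPs, against 28 and 27.8 in the WT IPs and 1.52 in the first IP. Both KO values were thus above both WT values. Input coverage of that window was 4.62 and 3.25 in KO, against 5.42 and 6.30 in WT and only 0.807 in the first input. The centred ratio of the 2 windows nearest the 5' end differed by 0.73 ± 0.68 in Id3 (SE, adjusted p = 0.76, limma), by 0.57 ± 0.81 in Id2 (SE, adjusted p = 0.84) and by -0.11 ± 0.78 in Id1 (SE, adjusted p = 0.97). Over the 3904 genes tested at the 5' end, 0% were called by limma, 310 had an unadjusted p under 0.05, the median difference was 0.40, and 30.5% had both KO ratios above both WT ratios, as Id3 did. In the last exon of Id1, window 3 had 26.6 and 38.7 in the KO IPs, against 51.8 and 79.5 in the WT IPs and 47.7 in the first IP. Window 4 had 44.2 and 53.2 in the KO IPs, against 44.8 and 62.3 in the WT IPs, and window 5 had 40.6 and 38.4 in the KO IPs, against 26.8 and 34.3 in the WT IPs. KO IP coverage was thus lower in window 3, overlapped with WT in window 4 and was higher in window 5. This order does not take input into account and is not an order of enrichment. Input coverage in window 3 was 11.6 and 11.7 in KO, against 6.36 and 7.71 in WT. In window 4 it was 9.39 and 14.3 in KO, against 7.08 and 9.86 in WT. In window 5 it was 10.8 and 15.5 in KO, against 11.1 and 11.7 in WT. In Smad6, window 7 of its last exon had 10.0 and 22.2 in the KO IPs, against 17.6 and 21.8 in the WT IPs and 15.9 in the first IP. Its winscore was 2.77 and 3.11 in the KO pairs, against 2.15 and 2.31 in the WT pairs. In the first pair it was 0.32, so only the first pair was below 2. The Smad6 IP median that winscore divides by was 0 in both KO IPs, against 2.51 and 2.79 in the WT IPs and 2.63 in the first IP. Input coverage in window 7 was 2.10 and 4.34 in KO and 1.78 and 2.41 in WT, against 11.2 in the first input.

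The other genes of the pathway were read from lists of ligands, receptors, SMADs and cofactors, inhibitors, targets and E proteins. Of these 52 genes, 25 were tested, 3 rose, 4 fell and 18 did not pass, where 13% and 13.6% of all genes tested rose and fell. Their median log2 difference was -0.00035. Among inhibitors, Smad7, an inhibitory SMAD like Smad6, fell by 0.26 on the log2 scale (SE 0.06, adjusted p = 0.018, limma). It had 12.9 and 12.2 in KO inputs against 14.9 and 15.5 in WT inputs. Twsg1, which encodes a secreted BMP modulator, fell by 0.29 (SE 0.07, adjusted p = 0.019, limma), and Ppm1a, a phosphatase of SMADs, rose by 0.21 (SE 0.07, adjusted p = 0.041, limma). The SMAD corepressor Ski fell by 0.29 (adjusted p = 0.012, limma) and its relative Skil rose by 0.20 (adjusted p = 0.049, limma). Among targets, Id4 rose by 0.31 (SE 0.09, adjusted p = 0.037, limma), with 2.78 and 3.43 in KO inputs against 2.46 and 2.14 in WT inputs. Tbx3, a transcription factor, had 14.0 and 12.9 in KO inputs against 23.9 and 24.8 in WT inputs. None of the 4 other receptors tested, Bmpr2, Acvr1, Acvr2a and Acvr2b, passed. The 3 E protein genes, Tcf3, Tcf4 and Tcf12, did not pass either.

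**Figure D4:**
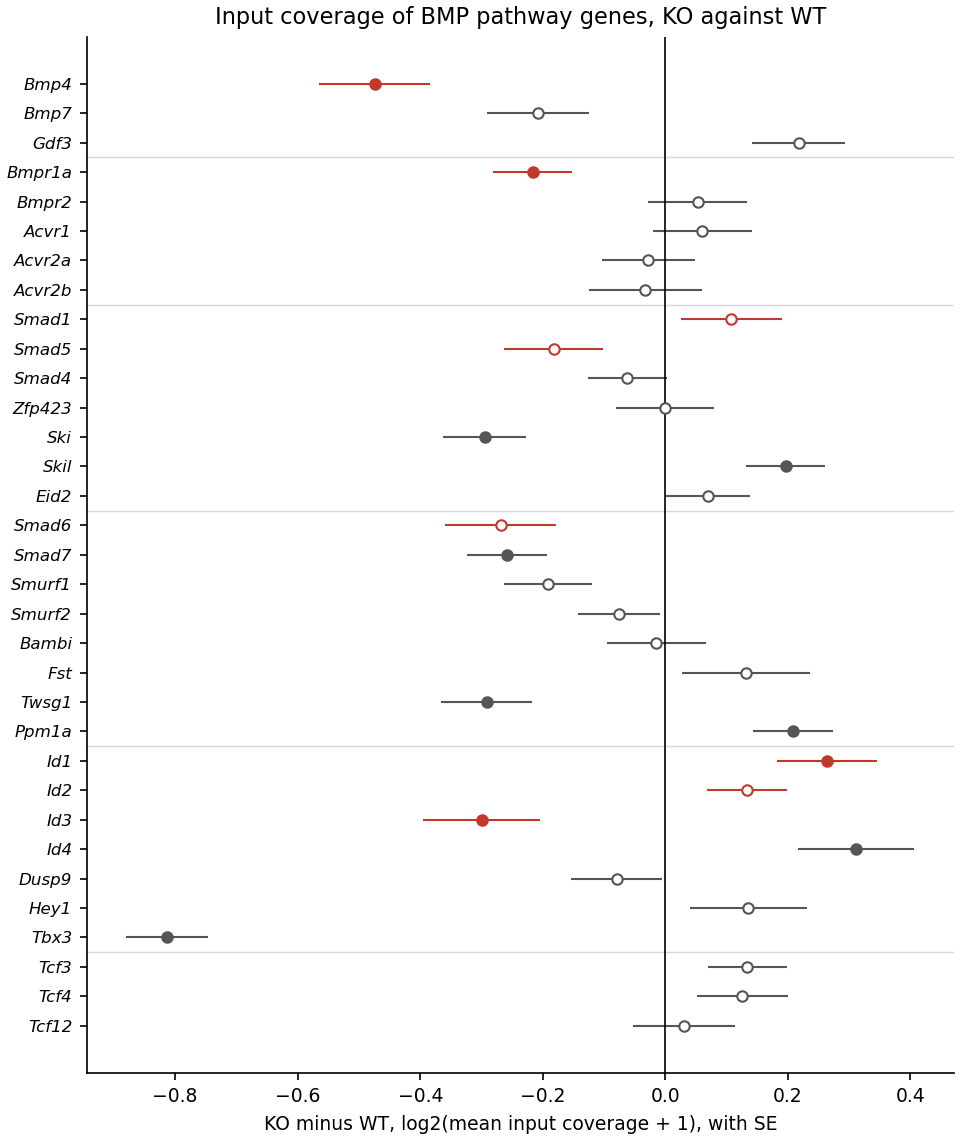
Log2 difference in input coverage, KO minus WT, with SE, for the 33 tested pathway genes by list, with the 8 genes in red and filled points for adjusted p under 0.05 (limma). Bmp4, at -0.47, and Tbx3 lie farthest to the left, and Id4, at 0.31, farthest to the right.

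Closeness to each of the 8 genes was taken on log2(input coverage + 1), centred on each gene's mean over the 5 inputs. The closest genes were drawn from 6597 genes with a mean of at least 5. They were Tmem50a and Ttc39b for Bmp4, Fxyd6 and Ddx46 for Bmpr1a, Imp4 and Nxn for Smad1, and AI414108 and Strbp for Smad5. For Smad6 they were Ecd and Stmn2, for Id1 Nup43 and Mad2l1, for Id2 Ppap2a and Rock2, and for Id3 Ctdsp2 and Tmem101. The root mean square difference ranged from 0.0089 for Ppap2a with Id2 to 0.046 for Tmem101 with Id3.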

How the data were processed

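Per the submitters' processing notes, TopHat 1.1.3 aligned the reads to mm9. The gene model, the read filters and whether counting used strand are not given here, so overlapping genes are uncertain. The deposited window files hold coverage, a signal scaled by 1 unstated factor per library, and the authors' log2 winscore, which was checked by recomputing it in all 1510223 windows. A deposited RPKM table was an alternative only. Absolute read numbers were not derived. Windows and exons run in genomic order: in last exons of 20 or more windows, regions lay among the lower-numbered windows in 78.3% of plus-strand and 22.0% of minus-strand cases. Id1 was taken as plus strand.

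Levels were log2(mean input coverage + 1) for genes that reached 1 in 2 or more of the 4 KO and WT inputs. Region and gene ratios were log2((IP + 1)/(input + 1)) where input coverage averaged 1 or more over the gene (for winscore too) and, for region ratios, also over the region, centred on windows outside regions in 5974 genes. Tests used limma 3.58.1 (lmFit, eBayes with trend, Benjamini-Hochberg over all features, threshold 0.05) in R 4.3.3, with 2 KO against 2 WT libraries, and were tested on simulated data. The first pair entered no test but chose the regions. Tables and figures used Python 3.11.15, pandas 2.3.3, numpy 2.4.6 and matplotlib 3.10.9. Named genes were the 8, pathway genes past the threshold (at most 6 a list), and the 2 closest genes of each. Alternatives were other pseudocounts, filters, scalings, region thresholds, the replicate block and leaving out each library. The genes, lists and tests were chosen with earlier results of these data known.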

Additional observations from a re-analysis of the deposited data

How the results depend on the processing

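The count of genes called for transcript level was 2977, and 7965 with the RPKM table, 15 with no filter, 1930 with a filter of at least 5, 1232 with gene median coverage, and 1743 to 3144 leaving out 1 library. With the RPKM table the differences of Bmp4 (1.97), Bmpr1a (0.59), Smad6 (0.21) and Id3 (1.09) changed sign. The KO columns of that table correlated at 0.958 and 0.974 with the KO IP tracks and at 0.700 and 0.715 with the KO input tracks. This setting is therefore not a like comparison of KO and WT inputs. For regions, where 0 were called, leaving out 1 library gave 0 to 1221 calls by winscore and 0 to 2275 by ratio, and for gene ratios 0 to 1916, the calls arising where a KO library was left out. Gene ratios without the input filter, an alternative chosen after seeing the data, gave 1 call. Region ratios without it, chosen likewise, gave 0 calls. Signs changed by winscore for the first Smad5 region at region threshold 1 (0.42) and with the highest window (0.029), with -0.62 to 0.45 leaving out 1 library, and for Id2 with the highest window (0.24) and -0.37 to 0.054. The second Smad5 region ranged over -0.27 to 1.26. By ratio they changed for Smad1 exon 6 centred on regions (0.24), at threshold 3 (0.094) and over -0.54 to 0.16 leaving out 1 library, and for the second Smad5 region at threshold 1 (-0.094) and over -0.22 to 0.42. The first Smad5 region ranged over -1.05 to 0.0071, and the Smad5 gene ratio over -0.20 to 0.0036. The cause was not tested.

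With the replicate block, 2737 genes were called for transcript level and 60 regions by winscore, with 0 by ratio for regions and genes. Bmpr1a then had an adjusted p of 0.055 and Smad6 one of 0.043 (limma). Numbers shared by KO and WT libraries did not mark a pairing in the labels, and deviations of same-numbered libraries correlated between -0.027 and 0.027. With 2 libraries a group and most IP windows at 0, differences in IP have wide errors.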
